A study of Homo sapiens with 24 samples.

Results

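Binding of the Flag-tagged cytokine subunits S100A8 and S100A9 was described at 10 hypoxia and glycolysis genes, HIF1A, VEGFA, SLC2A1, HK2, PFKFB3, ALDOA, PGK1, ENO1, LDHA, and CA9, out of 20098 protein-coding genes of GENCODE 44 on hg19 (chromosomes 1 to 22 and X). The rule that chose the genes uses their function and no measured value, but it was set with earlier results of these data known. For each gene, ChIP peaks were taken whose summit lies in the gene body or within 50 kb of it, which is called its locus here. A peak counted as a promoter peak where its summit was at most 1500 bp before or 250 bp after the transcription start site (TSS) of a protein-coding transcript. A peak was used where the −log10 of its q value, as called against the input of the same library, was at least 7. All cells were MCF-10A–ER-Src, a line derived from nontransformed mammary epithelium that carries v-Src fused to the ligand-binding domain of the estrogen receptor, so that tamoxifen switches the oncoprotein on. The cells stably expressed either S100A8-Flag or S100A9-Flag from a retroviral vector in addition to their own S100A8 and S100A9. Transformation was induced with 4-hydroxytamoxifen at 1 μM over 24 hours (TAM), and nontransformed cells received the ethanol vehicle (EtOH). The 11 Flag ChIP peak lists comprise 3 biological replicates per protein and treatment, except for S100A8-Flag under EtOH, which has 2. A single engineered line was used, ER-Src is present in every group, and control cells with an untagged protein are not analyzed here.

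When oxygen is short, the alpha subunit of hypoxia-inducible factor (HIF) escapes degradation, pairs with its beta partner, and activates genes through a core DNA element. Its targets carry glucose into the cell, turn it into lactate, recruit blood vessels, and buffer acid. Src signaling and growth factors can raise the same genes in normal oxygen, and a shift to glycolysis is a common feature of transformed epithelium. S100A8 and S100A9 lack a conventional DNA binding domain, and how they reach chromatin was not measured by these libraries.

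EtOH libraries held between 1853 and 4609 peaks past the threshold, and TAM libraries between 21518 and 40735. Read depths are not given with the lists, so fewer peaks in EtOH from shallower libraries and from weaker binding cannot be told apart. Of 8 basal mammary epithelial markers, 6 had a promoter peak in at least 1 TAM library (KRT5, KRT14, KRT17, EGFR, LAMB3, and ITGB4, but not TP63 or CDH1), and 3 in at least 1 EtOH library. Over all protein-coding genes, 59.8% had one in at least 1 TAM library and 28.6% in at least 1 EtOH library. With 8 markers, these counts do not set the basal markers apart from other genes. The markers of other cell types PTPRC, CD3E, ALB, GFAP, MYOD1, and NEUROD1 had no promoter peak in any of the 11 libraries.

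Promoter sequences under recurrent sites of 8 of the genes are shown because they are where binding at the genes themselves recurred between libraries. HK2 and CA9 had no recurrent promoter site. Each stretch covers up to 60 bp on either side of the summit, or else the longest stretch near it outside untranslated exons. The stretches of HIF1A, PFKFB3, and ENO1 do not include the summit. All are read 5′ to 3′ on the strand of the gene from the GRCh37 genome. Capitals mark the HIF core element, searched as ACGTG or GCGTG, and the AP-1 element TGANTCA, the site of FOS and JUN family dimers, all on both strands. ACGTG is also part of the E-box CACGTG, which other factors bind.
HIF1A promoter, chr14:62162147-62162230, plus strand: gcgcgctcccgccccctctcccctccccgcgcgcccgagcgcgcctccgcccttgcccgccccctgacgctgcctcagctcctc
SLC2A1 promoter, chr1:43424683-43424803, minus strand: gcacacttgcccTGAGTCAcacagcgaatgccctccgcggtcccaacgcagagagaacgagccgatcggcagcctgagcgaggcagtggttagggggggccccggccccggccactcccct
PFKFB3 upstream promoter, chr10:6205763-6205795, plus strand: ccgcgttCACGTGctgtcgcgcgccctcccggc
ALDOA promoter, chr16:30076778-30076898, plus strand: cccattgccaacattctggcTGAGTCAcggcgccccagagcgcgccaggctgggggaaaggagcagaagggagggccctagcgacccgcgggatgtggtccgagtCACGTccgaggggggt
PGK1 promoter, chrX:77359612-77359732, plus strand: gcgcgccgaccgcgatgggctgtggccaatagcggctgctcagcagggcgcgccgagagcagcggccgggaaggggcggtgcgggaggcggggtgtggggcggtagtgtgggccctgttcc
ATP7A promoter, at the annotated 5′ end of PGK1, chrX:77165998-77166118, plus strand: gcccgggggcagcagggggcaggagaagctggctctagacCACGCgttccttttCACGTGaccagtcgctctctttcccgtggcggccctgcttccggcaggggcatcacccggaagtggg
ENO1 promoter, chr1:8938093-8938205, minus strand: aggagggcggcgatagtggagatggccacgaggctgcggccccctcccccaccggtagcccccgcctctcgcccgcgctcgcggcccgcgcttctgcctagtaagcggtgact
LDHA downstream promoter, chr11:18417626-18417746, plus strand: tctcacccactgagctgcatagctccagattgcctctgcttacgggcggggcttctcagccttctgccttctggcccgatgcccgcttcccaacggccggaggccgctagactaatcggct
VEGFA promoter, chr6:43737314-43737434, plus strand: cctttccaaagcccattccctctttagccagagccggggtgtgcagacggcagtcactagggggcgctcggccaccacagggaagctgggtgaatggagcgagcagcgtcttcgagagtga
The PFKFB3 upstream promoter and the ATP7A promoter each hold the palindrome CACGTG, and the ALDOA and SLC2A1 promoters each hold TGAGTCA. The CACGTG shown for PFKFB3 lies more than 100 bp from the summit, outside the window of the counts that follow. That window also holds elements outside the stretches shown. These are 2 HIF cores at the PFKFB3 upstream promoter, 2 at VEGFA, 1 at the LDHA downstream promoter, and 1 AP-1 element at ENO1. Some recurrent promoter sites counted below are not shown, such as that at the canonical LDHA TSS, with 5 HIF cores. Within 100 bp of the summit, the HIF core was found at 9 of 14 recurrent promoter sites of the 10 genes (64.3%) and at 53.2% of 9441 recurrent promoter sites over all genes, where recurrent means called in at least 2 replicates of a condition. The AP-1 element was found at 4 of these 14 promoter sites (28.6%), against 8.09% of all promoter sites. Among the other motifs searched on both strands, the ETS element CGGAAG was found at 2 of the 14 (27.4% of all promoter sites), the GC box CCCCGCCC at 1 (25.0%), and the cyclic AMP response element TGACGTCA at 1 (2.85%). The median GC content of these windows was 66.7% at the 14 sites and 67.2% at all promoter sites. With so few sites these shares only describe them.

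Distal sites called in at least 5 of the 6 TAM libraries are shown for the same reason, with the same marks.
SLC2A1 intron, chr1:43402307-43402427, minus strand: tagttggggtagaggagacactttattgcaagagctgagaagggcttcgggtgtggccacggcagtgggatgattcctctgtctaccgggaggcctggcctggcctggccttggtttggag
PFKFB3 intron, chr10:6281284-6281404, plus strand: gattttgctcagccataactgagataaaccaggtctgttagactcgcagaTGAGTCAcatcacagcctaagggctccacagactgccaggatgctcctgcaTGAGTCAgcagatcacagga
PFKFB3 3′ side, nearer site, chr10:6317327-6317447, plus strand: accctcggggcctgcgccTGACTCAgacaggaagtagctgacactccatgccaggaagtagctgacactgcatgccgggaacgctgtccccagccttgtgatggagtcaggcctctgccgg
PFKFB3 3′ side, farther site, chr10:6341293-6341413, plus strand: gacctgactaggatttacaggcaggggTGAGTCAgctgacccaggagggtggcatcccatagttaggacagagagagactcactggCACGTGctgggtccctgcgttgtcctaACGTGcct
LDHA upstream, chr11:18405385-18405505, plus strand: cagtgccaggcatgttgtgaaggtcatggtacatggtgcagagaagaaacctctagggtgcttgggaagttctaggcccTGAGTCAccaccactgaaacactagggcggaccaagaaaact
VEGFA upstream, chr6:43692958-43693078, plus strand: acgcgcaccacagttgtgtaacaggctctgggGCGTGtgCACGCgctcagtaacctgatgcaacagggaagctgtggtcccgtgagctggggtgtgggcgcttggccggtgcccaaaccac
The 3 distal PFKFB3 sites shown hold TGAGTCA or TGACTCA, as does the site upstream of LDHA, and the farther 3′ site of PFKFB3 also has the HIF core. No AP-1 element lies in the stretches shown for the SLC2A1 intron and the VEGFA upstream site, and the latter has the HIF core on each strand. Outside its stretch but within 100 bp of the summit, the SLC2A1 intron site had 1 AP-1 element and 1 HIF core. Over the 23 recurrent sites of the 10 loci that lie outside every promoter window, 14 had the AP-1 element within 100 bp of the summit (60.9%), against 41.6% of 20897 such sites genome-wide. The HIF core was found at 7 of the 23 (30.4%), against 35.3%. Within 50 bp of the summit, the HIF core was found at 5 of the 14 promoter sites (35.7%, against 33.8% of all promoter sites) and at 3 of the 23 other sites (13.0%, against 21.9%). A match of letters is a description and does not show which factor was present.

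Every one of the 10 loci had more peaks on average in TAM than in EtOH, and the difference passed the test at 8 of them. HIF1A and LDHA were the exceptions. The median difference between TAM and EtOH was 3.46 peaks per locus over the 10 genes and 2.33 over all 18764 genes with at least 1 peak. Of those 18764 genes, 65.3% were called higher in TAM and none lower (exact permutation of libraries within each protein, Benjamini-Hochberg adjusted p under 0.05). The share of the 10 genes called is therefore to be read against a change that most genes share. By a second rule, every TAM library exceeded every EtOH library at 4 of the 10 loci (SLC2A1, ALDOA, ENO1, and CA9), and this held for 38.8% of all genes.

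**Figure D1:**
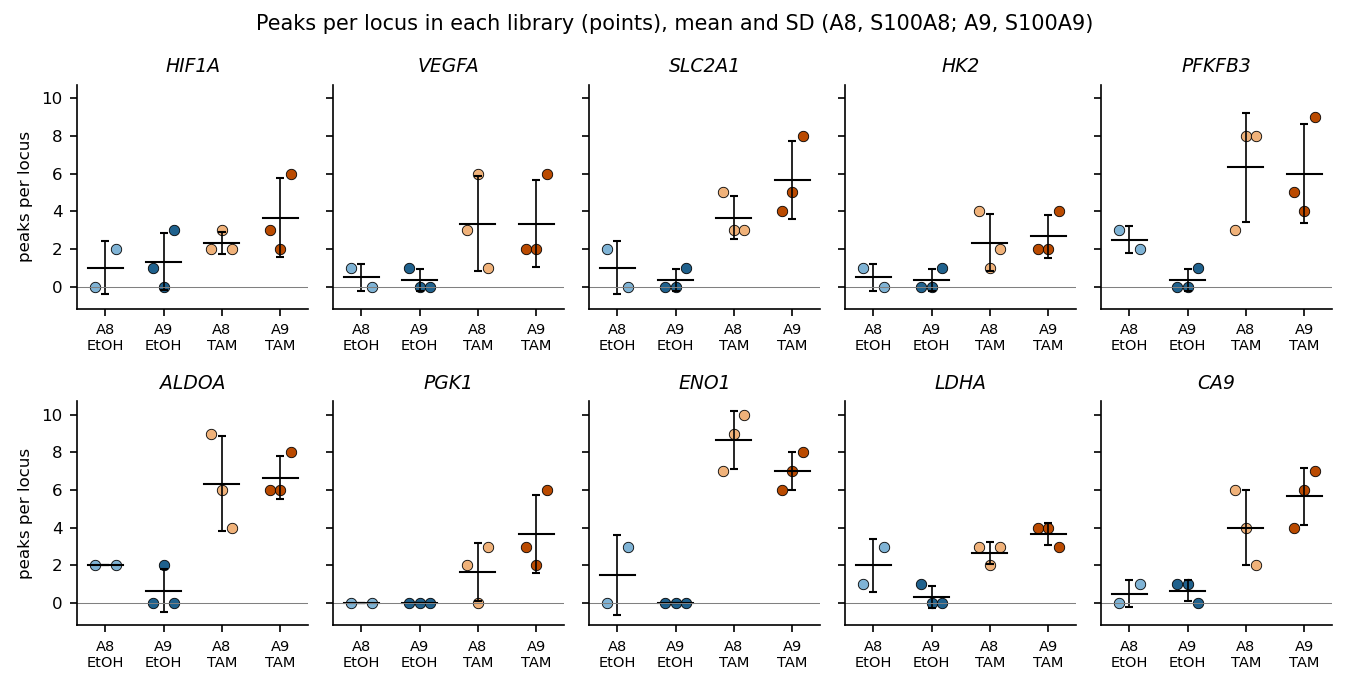
Number of peaks with −log10 q of at least 7 per locus (gene body and 50 kb on either side) for each of the 10 genes. Each point is a library, grouped by protein (A8, S100A8; A9, S100A9) and treatment, the line is the mean and the bars the SD (n = 2 or 3), and the points of ENO1 show the widest gap, with 6 to 10 peaks in TAM and 0 to 3 in EtOH.

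HIF1A, which encodes the oxygen-regulated alpha subunit, spans 62162231 to 62214977 on the plus strand of chromosome 14. Its locus had 0 and 2 peaks in the S100A8 EtOH libraries, 1, 0, and 3 in S100A9 EtOH, 2, 3, and 2 in S100A8 TAM, and 3, 2, and 6 in S100A9 TAM. The groups overlap, and the EtOH library with 3 peaks lies as high as most TAM libraries. The mean was 1.2 ± 1.30 (SD, n = 5) in EtOH and 3 ± 1.55 (n = 6) in TAM, and the difference did not pass the test (exact permutation p = 0.09, adjusted p = 0.116). Its main site covers the TSS (chromosome 14, 62161784 to 62162668) and was called in 8 libraries, namely all 6 in TAM and 2 in EtOH. The other site called in most libraries (62217672 to 62218157, 7 libraries, 3 of them EtOH) lies just past the 3′ end of the gene, where the noncoding HIF1A-AS3 is annotated. Thus the 2 most recurrent sites at HIF1A were both called without tamoxifen in some libraries.

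Among the genes of glucose uptake and glycolysis, 6 of 7 were called higher in TAM in peaks per locus, as were 65.3% of all genes, and none of the 7 was called per 10000 library peaks. SLC2A1 encodes the glucose transporter of the plasma membrane and lies at 43391024 to 43424564 on the minus strand of chromosome 1. Its locus had 2 and 0 peaks in S100A8 EtOH, 0, 0, and 1 in S100A9 EtOH, 5, 3, and 3 in S100A8 TAM, and 4, 5, and 8 in S100A9 TAM. The groups do not overlap. The mean was 0.6 ± 0.894 (n = 5) in EtOH and 4.67 ± 1.86 (n = 6) in TAM (exact permutation p = 0.01, which is the smallest that the 200 arrangements can give, adjusted p = 0.0226). Its promoter site (43424241 to 43425142) was called in 5 TAM and 1 EtOH libraries. Within the gene, an intronic site at 43402067 to 43402558 was called in 5 TAM libraries, and a neighbouring site at 43402974 to 43403191 in the 3 S100A9 TAM libraries alone. Below the threshold, the neighbouring site also had peaks in S100A8 TAM replicates 2 and 3 (−log10 q of 3.88 and 2.72) and S100A8 EtOH replicate 1 (2.03). A further site 8.38 kb upstream (43432772 to 43433294) was called in 4 libraries, all TAM. At an internal promoter 15.5 kb into the canonical transcript, a site was called in 2 EtOH and 2 TAM libraries.

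HK2 encodes a hexokinase, which traps glucose as its phosphate (chromosome 2, 75061254 to 75120486, plus strand). It had 1 and 0 peaks in S100A8 EtOH, 0, 0, and 1 in S100A9 EtOH, 4, 1, and 2 in S100A8 TAM, and 2, 2, and 4 in S100A9 TAM. Most TAM libraries lie above EtOH, but 1 TAM library equals the EtOH maximum. The mean was 0.4 ± 0.548 (n = 5) in EtOH and 2.5 ± 1.22 (n = 6) in TAM (exact permutation p = 0.02, adjusted p = 0.0365). Binding at HK2 was scattered. Of 11 sites, 8 were called in a single library and 1 was recurrent, an intronic site 11.5 kb past the start (75072426 to 75072841) that was called in 3 TAM and 2 EtOH libraries.

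PFKFB3 encodes a kinase and phosphatase that makes fructose-2,6-bisphosphate, an activator of glycolysis (chromosome 10, 6186897 to 6296607, plus strand). Its locus had 3 and 2 peaks in S100A8 EtOH, 0, 0, and 1 in S100A9 EtOH, 3, 8, and 8 in S100A8 TAM, and 5, 4, and 9 in S100A9 TAM. The lowest TAM library equals the highest EtOH library. The mean was 1.2 ± 1.30 (n = 5) in EtOH and 6.17 ± 2.48 (n = 6) in TAM (exact permutation p = 0.02, adjusted p = 0.0365). At least 5 TAM libraries called 5 of its 13 sites. One promoter site lies at an upstream TSS (6205495 to 6206142, 5 TAM and 2 EtOH libraries), 39.0 kb before the canonical TSS, and another at the canonical TSS itself (6244643 to 6245240, 5 TAM and 1 EtOH libraries). Past the 3′ end, the site at 6341092 to 6341577, 96.5 kb from the canonical TSS and within the noncoding LINC02649, passed in each of the 6 TAM libraries but in none under EtOH. Its −log10 q in TAM was 20.3, 39.5, and 28.0 for S100A8 and 29.1, 14.6, and 28.1 for S100A9. In EtOH, 2 S100A9 libraries had a weaker peak there, at 6.30 and 3.44. The site at 6317130 to 6317811 was called in 5 TAM libraries and 1 EtOH library and reached the highest −log10 q of any named site, 55.8, in S100A9 TAM replicate 3.

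ALDOA encodes aldolase A, which splits fructose bisphosphate (chromosome 16, 30075485 to 30081778, plus strand). It had 2 and 2 peaks in S100A8 EtOH, 0, 2, and 0 in S100A9 EtOH, 9, 6, and 4 in S100A8 TAM, and 6, 6, and 8 in S100A9 TAM. The groups do not overlap. The mean was 1.2 ± 1.10 (n = 5) in EtOH and 6.5 ± 1.76 (n = 6) in TAM (exact permutation p = 0.01, adjusted p = 0.0226). The locus is gene dense, and 9 of its 13 sites lay at promoters of other genes, including sites at TBX6 (30103112 to 30103688, 6 libraries) and GDPD3 (30124009 to 30124429, 4 libraries). The most recurrent of them (30064135 to 30064594, 5 TAM and 2 EtOH libraries) lay at a promoter of ENSG00000285043. That annotated gene also covers the ALDOA promoter site, so it is not simply a neighbour. The ALDOA promoter site itself (30076217 to 30077479) was called in 9 libraries, the most of any site at the 10 loci, with 6 TAM and 3 EtOH libraries. With peaks limited to gene body and promoter, the difference at ALDOA was 0.50 in place of 5.17 (exact permutation, adjusted p = 0.358).

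PGK1 encodes phosphoglycerate kinase, the first ATP-yielding step of glycolysis. Its annotated gene body starts at the promoter of ATP7A, a copper transporter, so that the interval (chromosome X, 77166236 to 77384792, plus strand) is 219 kb long, while its canonical transcript starts at 77359745. No EtOH library had a peak. The S100A8 TAM libraries had 2, 0, and 3 peaks and the S100A9 TAM libraries 3, 2, and 6. One TAM library is thus level with EtOH, and the other 5 lie above it. The TAM mean was 2.67 ± 1.97 (n = 6, exact permutation p = 0.03, adjusted p = 0.0460). The site at the ATP7A promoter (77165927 to 77166273) was called in 4 TAM libraries and that at the canonical TSS of PGK1 (77359316 to 77359990) in 3. The other recurrent site lies at the TAF9B promoter (77394989 to 77395341, 3 TAM libraries).

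ENO1 encodes enolase, which makes phosphoenolpyruvate (chromosome 1, 8921059 to 8939249, minus strand). It had 0 and 3 peaks in S100A8 EtOH and none in the 3 S100A9 EtOH libraries, against 7, 9, and 10 in S100A8 TAM and 6, 7, and 8 in S100A9 TAM. The groups are separated by a wide gap. The mean was 0.6 ± 1.34 (n = 5) in EtOH and 7.83 ± 1.47 (n = 6) in TAM, a difference of 7.08 that was the largest of the 10 loci (exact permutation p = 0.01, adjusted p = 0.0226). Of 21 sites, 19 were called in TAM alone and 11 in a single library. The promoter site (8937748 to 8939611) was called in 5 TAM and 1 EtOH libraries. An intergenic site 121 bp before a TSS of RERE, a nuclear receptor corepressor (8908907 to 8909503), was called in 5 TAM libraries. Sites inside ENO1 at 8933664 to 8934026 and 21.4 kb upstream at 8959950 to 8960442 were each called in 4 TAM libraries. Under EtOH neither had a peak, even below the threshold.

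LDHA encodes the A subunit of lactate dehydrogenase, which turns pyruvate into lactate (chromosome 11, 18416107 to 18429972, plus strand). It had 1 and 3 peaks in S100A8 EtOH, 1, 0, and 0 in S100A9 EtOH, 3, 2, and 3 in S100A8 TAM, and 4, 4, and 3 in S100A9 TAM. The S100A8 groups overlap and the S100A9 groups do not. The mean was 1 ± 1.22 (n = 5) in EtOH and 3.17 ± 0.753 (n = 6) in TAM, and the difference did not pass the test after adjustment (exact permutation p = 0.04, adjusted p = 0.0572). Within the proteins it was 0.667 peaks for S100A8 and 3.33 for S100A9, and a test of that contrast of the proteins gave an exact permutation p = 0.06 (adjusted p = 1). LDHA had 2 promoter sites, at the canonical TSS (18415511 to 18416465, 5 TAM and 1 EtOH libraries) and 1.58 kb downstream of it at a further TSS (18417379 to 18417942, 5 TAM and 2 EtOH libraries). An upstream site 10.7 kb before the gene (18405110 to 18405672) was called in 5 TAM libraries and 1 EtOH library.

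The loci of VEGFA and CA9, HIF targets outside glycolysis, were both called higher in TAM in peaks per locus, as were 65.3% of all genes, and at CA9 the peaks lay outside the gene and its promoter. VEGFA encodes the growth factor of blood vessel formation (chromosome 6, 43737921 to 43754224, plus strand). It had 1 and 0 peaks in S100A8 EtOH, 1, 0, and 0 in S100A9 EtOH, 3, 6, and 1 in S100A8 TAM, and 2, 2, and 6 in S100A9 TAM. One TAM library is level with the EtOH maximum. The mean was 0.4 ± 0.548 (n = 5) in EtOH and 3.33 ± 2.16 (n = 6) in TAM (exact permutation p = 0.02, adjusted p = 0.0365). Its most recurrent site was not the promoter but a site 44.9 kb upstream (43692761 to 43693220), called in 5 TAM libraries and 1 EtOH library. The promoter site (43737290 to 43737500) was called in 3 TAM libraries. Other sites, at 43691667 to 43691846 and at 43742573 to 43742894, were each called in 2 TAM libraries.

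CA9 encodes carbonic anhydrase IX, an acid-regulating enzyme of the cell surface (chromosome 9, 35673925 to 35681156, plus strand). It had 0 and 1 peaks in S100A8 EtOH, 1, 1, and 0 in S100A9 EtOH, 6, 4, and 2 in S100A8 TAM, and 4, 6, and 7 in S100A9 TAM. The groups do not overlap. The mean was 0.6 ± 0.548 (n = 5) in EtOH and 4.83 ± 1.83 (n = 6) in TAM (exact permutation p = 0.01, adjusted p = 0.0226). None of these peaks lay in CA9 itself. Its 12 sites fell at or near its neighbours, and in the gene body and promoter of CA9 the peak number was 0 in every library. The site called in most libraries (35657469 to 35658063, all 6 TAM and 2 EtOH) covers RMRP, the RNA gene of a ribonuclease, next to CCDC107. Others lay near SIT1 (35646714 to 35647195, 5 libraries) and at the ARHGEF39 promoter (35664839 to 35665535, 3 libraries).

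With the 1853 strongest peaks of every library, none of the 10 genes and none of all genes passed (0 of 12750), and the difference at VEGFA and HK2 turned to −0.42 and −0.17 peaks. Without either S100A8 EtOH library no gene passed, as the smallest p that the 80 arrangements allow is 0.025 and the lowest adjusted p was 0.0507 (exact permutation). The differences themselves were then 3.50 and 4.50 peaks at SLC2A1 (4 with all libraries) and 6.33 and 7.83 at ENO1 (7.08 with all libraries), so the lost calls do not bear on their size. Without any single other library, SLC2A1, ALDOA, ENO1, and CA9 remained called, while VEGFA, HK2, PFKFB3, and PGK1 each lost the call on leaving out 10 of the 11 libraries in turn (exact permutation, highest adjusted p = 0.0900).

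As TAM libraries held more peaks as a whole, the peaks of a locus were next counted per 10000 peaks of the library. On this scale no difference between treatments passed the test. None of the 10 genes was called, nor did any of the 18764 genes (0% called at an adjusted p under 0.05, with 3979 genes at an unadjusted p under 0.05). The lowest adjusted p of the 10 was 0.177, for PGK1, which had 0 in EtOH and 0.926 ± 0.549 peaks per 10000 (n = 6) in TAM (exact permutation p = 0.03). The median difference was −0.11 peaks per 10000 over the 10 genes and 0.0775 over all genes. ENO1 had 1.30 ± 2.91 (n = 5) in EtOH and 3.00 ± 1.01 (n = 6) in TAM, whereas ALDOA had 3.95 ± 4.43 in EtOH and 2.37 ± 0.433 in TAM and HIF1A had 2.73 ± 2.82 in EtOH and 1.06 ± 0.293 in TAM. Neither direction exceeded the spread of the EtOH libraries, in which a single peak weighs several times more than in TAM. In none of the 10 loci did every TAM library lie above every EtOH library, which 8.56% of all genes did.

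**Figure D2:**
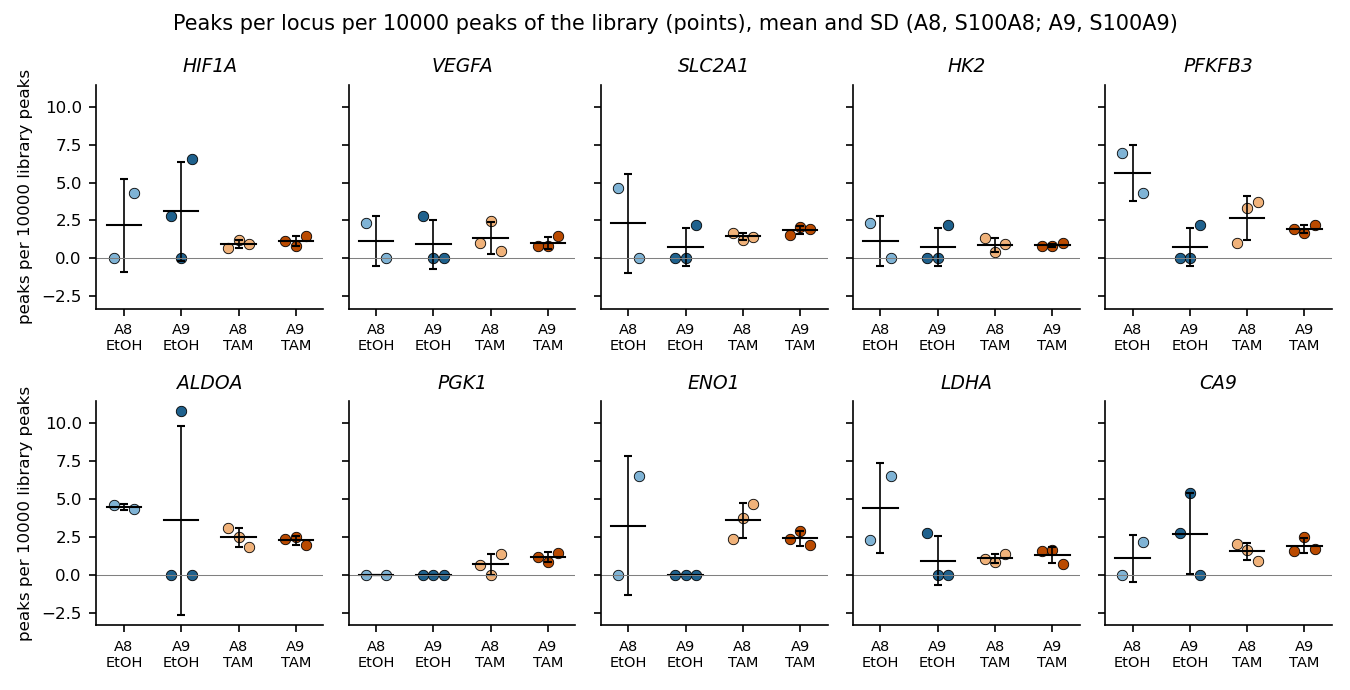
Peaks per locus divided by the number of peaks of the library, per 10000, for the 10 genes. Points are libraries by protein (A8, S100A8; A9, S100A9) and treatment, with the mean and SD (n = 2 or 3). The EtOH points range from 0 in at least 1 library at every locus up to 10.8 at ALDOA in S100A9 EtOH replicate 2. At most loci they spread widely around the TAM points, but at PGK1 all are 0 and at ENO1 only S100A8 EtOH replicate 2 is above 0.

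At promoters, 5 of the 10 genes (HIF1A, PFKFB3, ALDOA, ENO1, and LDHA) had a peak in every TAM library, as did 13.7% of all genes. SLC2A1 and PGK1 had one in 5 of 6 TAM libraries, VEGFA and HK2 in 3, and CA9 in none. In EtOH, ALDOA had a promoter peak in 3 of 5 libraries, HIF1A, SLC2A1, PFKFB3, and LDHA in 2, ENO1 in 1, and VEGFA, HK2, PGK1, and CA9 in none. The number of the 10 genes with a promoter peak was 2.4 ± 1.34 per EtOH library (n = 5, range 1 to 4) and 7.67 ± 1.03 per TAM library (n = 6, range 6 to 9). Over all genes 1181 to 2412 had a promoter peak in an EtOH library and 6603 to 9707 in a TAM library, the latter 32.9% to 48.3% of them. With the canonical TSS alone, the TAM libraries with a promoter peak fell from 5 to 3 at PGK1. Some of the PGK1 promoter peaks are those at ATP7A. They also fell from 6 to 4 at ENO1, from 6 to 5 at PFKFB3 and LDHA, and from 3 to 2 at HK2. HIF1A and ALDOA kept all 6, SLC2A1 kept 5, and VEGFA kept 3. The share of all genes with a peak at the canonical TSS in every TAM library is not given here.

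**Figure D3:**
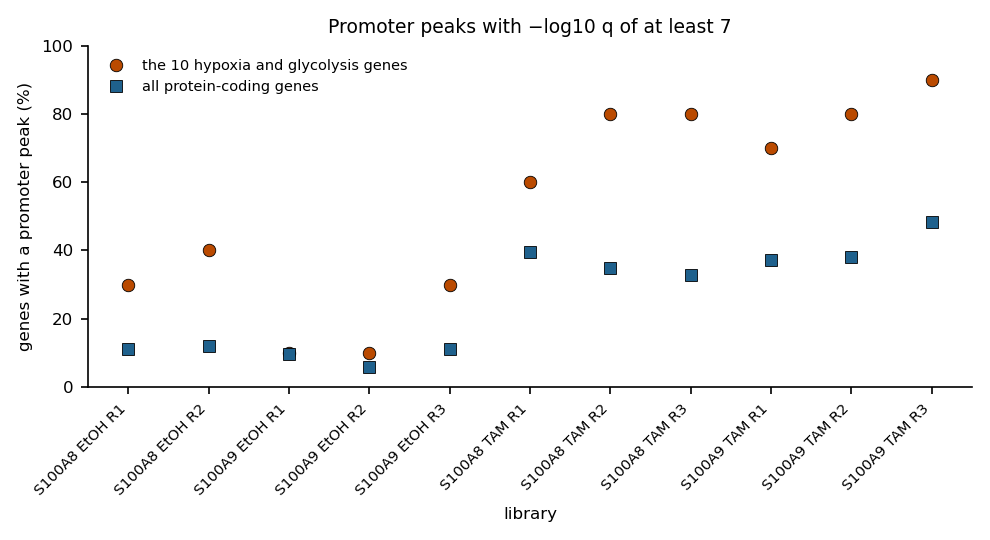
Share of genes with a promoter peak (−log10 q of at least 7) in each of the 11 libraries, for the 10 hypoxia and glycolysis genes (circles) and all 20098 protein-coding genes (squares). The 10 genes lie between 60% and 90% in TAM libraries and between 10% and 40% in EtOH libraries.

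The promoter differences between treatments did not pass the test at any gene. None of the 9 genes with a promoter peak was called (0% of 12103 genes tested, of which 2230 had an unadjusted p under 0.05). The smallest p values were those of PGK1 (0 of 5 EtOH and 5 of 6 TAM libraries, exact permutation p = 0.03, adjusted p = 0.217) and ENO1 (1 of 5 and 6 of 6, exact permutation p = 0.04, adjusted p = 0.217). No gene of the 10 was called in every TAM and no EtOH library, which was true of 4.64% of the genes tested.

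Below the threshold, the lists show promoter peaks in EtOH at most of these genes. At any q value deposited (q of at most 0.05), HIF1A, VEGFA, PFKFB3, ALDOA, ENO1, and LDHA had a promoter peak in all 5 EtOH libraries and SLC2A1 in 4. PGK1 had one in 2, and HK2 and CA9 in 1 each. All but CA9 had one in all 6 TAM libraries. By this count, 7.6 ± 1.52 of the 10 genes had a promoter peak in EtOH (n = 5) and 9 ± 0 in TAM (n = 6). The share of all genes at any q value is not given here, so this count does not set the 10 genes apart. The peaks differed in strength. The median −log10 q at the ENO1 promoter was 4.13 in EtOH and 15.2 in TAM, with 1.51 to 11.1 in EtOH and 7.03 to 33.7 in TAM. At ALDOA it was 7.26 in EtOH and 19.3 in TAM, at LDHA 5.64 and 19.1, at HIF1A 4.79 and 11.03, and at PFKFB3 6.36 and 12.8. The ranges of EtOH and TAM overlapped at each of these genes. LDHA reached 17.8 in EtOH, and at PFKFB3 the highest value was 19.8 in EtOH and 18.4 in TAM. Fold enrichment over input differed less. Its median was 4.67 in EtOH and 10.2 in TAM at ENO1, 7.04 and 11.6 at ALDOA, and 6.95 and 7.26 at PFKFB3. The q value of a peak also moves with read depth, which is not known here. CA9 had a lone weak peak in S100A9 EtOH replicate 3, with −log10 q of 3.15.

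**Figure D4:**
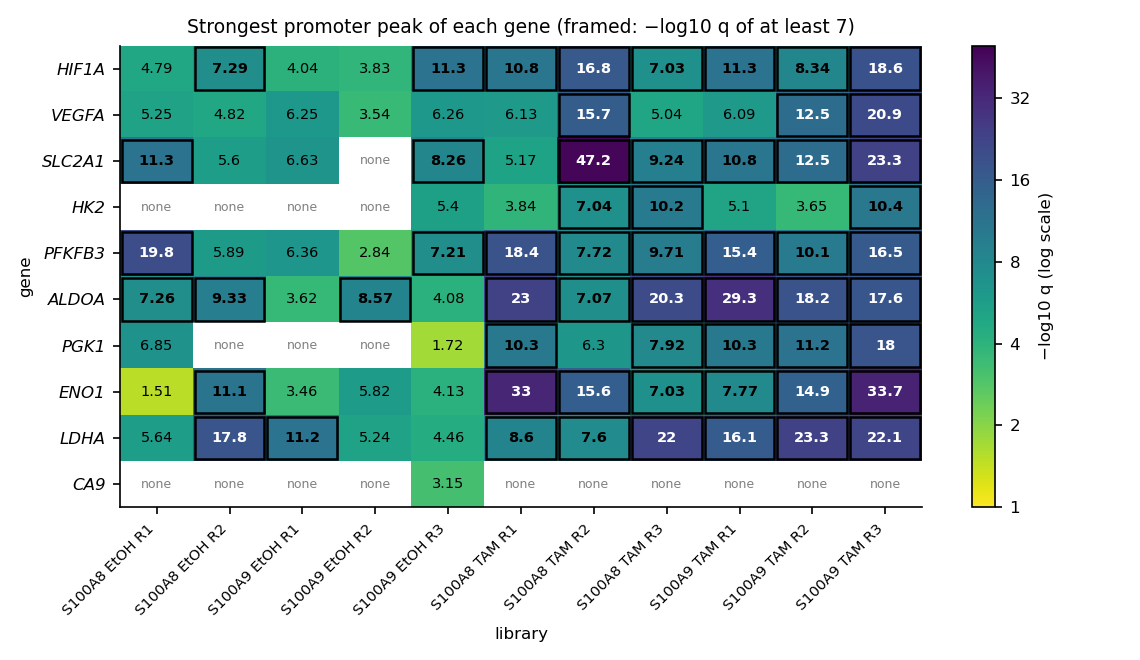
Strength of the strongest promoter peak of each gene (rows) in each of the 11 libraries (columns) as −log10 q, with the color on a log scale. Framed cells reach 7, and cells marked none have no peak in the deposited list, as for CA9 in 10 of 11 libraries.

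No difference between S100A8 and S100A9 passed the test at these genes. With the libraries of each protein compared within a treatment, none of the 10 loci was called in peaks per locus (0% of 18764 genes, 130 with an unadjusted p under 0.05). The difference, S100A9 minus S100A8, ranged from −1.58 peaks at ENO1 (exact permutation p = 0.12, adjusted p = 1) to 1 at PGK1 (exact permutation p = 0.5, adjusted p = 1), with a median of 0 over the 10 genes and 0.167 over all genes. Nor was any of the 9 promoters called (0% of 12103 genes, 14 with an unadjusted p under 0.05), the largest difference being at ALDOA, called in 2 of 2 S100A8 and 1 of 3 S100A9 EtOH libraries and in every TAM library (exact permutation p = 0.6, adjusted p = 1). With 5 libraries against 6, a p that misses the threshold does not show that the proteins bind alike. No difference between the proteins in the effect of TAM on peaks per locus passed at any of the 10 genes (0 of 18764 genes called, 387 with an unadjusted p under 0.05).

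The 10 loci together held 115 sites, where peaks of different libraries that overlap by at least 1 bp count as 1 site. Of these, 48 were recurrent (41.7%, against 42.7% of all 70990 sites), and 55 were called in a single library (47.8% against 45.6%). In TAM, S100A8 had peaks at 81 sites and S100A9 at 81, of which 50 were shared, that is 61.7% of each. Over all sites, the shared part was 64.3% of S100A8 and 59.2% of S100A9 sites. EtOH libraries called 24 of the 115 sites (20.9%, 18.0% of all sites), and 3 of these were called in EtOH alone. By position, 21 sites lay at a promoter of the gene itself, 18 at a promoter of another gene, and 76 were distal. Promoter sites of the genes (14 of 21) and of other genes (11 of 18) were recurrent more often than distal sites (23 of 76), which was not tested.

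**Figure D5:**
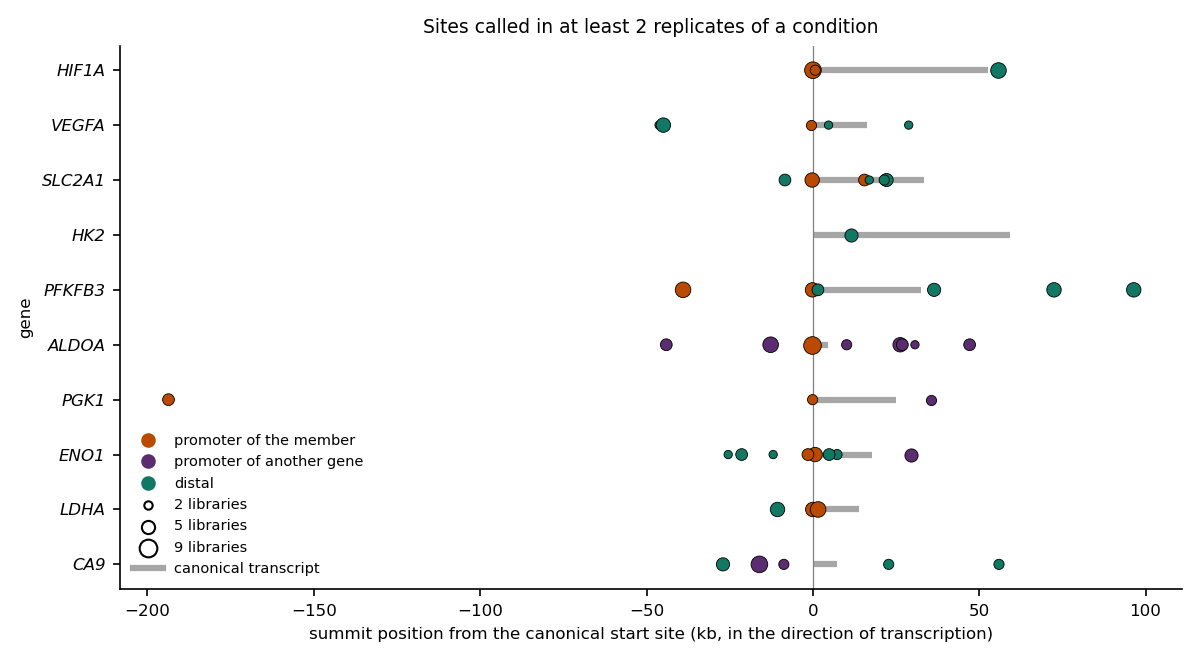
Position of the 48 recurrent sites relative to the canonical start site of each gene, in kb in the direction of transcription. Circle area grows with the number of libraries that called a site, color gives its class, and the grey bar is the canonical transcript. PFKFB3 has recurrent sites out to 96.5 kb, and CA9 has none at its start.

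To set loci of different length side by side, peaks were counted per 100 kb of locus. In TAM, the order was ENO1 with 6.63 ± 1.25 peaks per 100 kb (n = 6), ALDOA with 6.12 ± 1.66, CA9 with 4.51 ± 1.71, SLC2A1 with 3.49 ± 1.39, PFKFB3 with 2.94 ± 1.18, VEGFA with 2.87 ± 1.86, LDHA with 2.78 ± 0.661, HIF1A with 1.96 ± 1.01, HK2 with 1.57 ± 0.769, and PGK1 with 0.837 ± 0.617. No neighbours in this order differ by more than the larger of their SDs. The median of all genes was 1.67, so that 8 of the 10 loci lay above it and HK2 and PGK1 below. ENO1 exceeded 95.2% of genes or equaled them, and ALDOA 94.0%. In EtOH, ALDOA had 1.13 ± 1.03 peaks per 100 kb (n = 5) and PGK1 had 0, around an all-gene median of 0.186. All loci but PGK1 lay above that median in EtOH too, so a density above the median is not particular to TAM.

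Most other genes of the pathway also had more peaks in TAM. Of 46 other genes of the pathway, 39 were called higher in TAM in peaks per locus and none lower, with a median difference of 3.42 peaks. Over all 18764 genes tested, 65.3% were called higher, none lower, and the median difference was 2.33 peaks. All 10 genes of the HIF system passed (EPAS1, ARNT, ARNT2, HIF3A, EGLN1, EGLN2, EGLN3, VHL, HIF1AN, and CITED2), 15 of 18 genes of glucose transport and glycolysis, and 14 of 18 further HIF targets. Per 10000 library peaks, none of the 46 passed, and their median difference was −0.13. The largest differences in peaks per locus were those of SLC16A3, DDIT4, EGLN3, and NDRG1. SLC16A3, which exports lactate, had 4 and 4 peaks in S100A8 EtOH, 1, 2, and 3 in S100A9 EtOH, 19, 15, and 16 in S100A8 TAM, and 19, 18, and 22 in S100A9 TAM, a difference of 15.2. EGLN3, an oxygen-sensing hydroxylase that marks HIF for degradation, had at most 1 peak in any EtOH library and 9 to 14 in TAM, a difference of 10.8. DDIT4, an inhibitor of the growth kinase mTOR, differed by 10.9 and NDRG1, a stress-responsive gene, by 10 (adjusted p = 0.0226 by exact permutation for each of these 4 genes). Between the proteins, none of the 46 genes was called. Among the larger differences, S100A9 minus S100A8, were −2.08 peaks at PFKFB4, 1.92 at DDIT4, and 1.67 at ALDOC, each with an adjusted p of 1 by exact permutation.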

How the data were processed

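Flag ChIP-seq peak lists of 11 libraries were used. Pol II and input samples are not analyzed here. Per the paper's methods, the authors aligned reads to hg19 with Bowtie2 and called peaks against input with MACS2 (versions not given in the sources used here). The deposited lists give fold enrichment (a ratio over input), −log10 p, and −log10 q for each peak. The deposited p value and MACS2 score (10 times the −log10 q) were not used further. Read depths are unknown, so no counting intervals are given. All peak ends lay within the GRCh37 chromosome lengths. Peaks with −log10 q of at least 7 were assigned by summit to GENCODE 44 genes (hg19). TAM and EtOH were compared by exact two-sided permutation of libraries within each protein, and the proteins within each treatment, with 200 arrangements (smallest p = 0.01) and Benjamini-Hochberg adjustment over all genes with a peak. Permutation within 1 protein cannot go below p = 0.2 for S100A8 and 0.1 for S100A9. The 10 genes, the gene lists, and the tests were chosen with earlier results of these data known. All 10 genes were named, with their most recurrent promoter site and up to 3 most recurrent other sites. Further sites named in the text were chosen after their values were seen. The genes named from the other pathway genes are the 4 with the largest absolute difference in each comparison, apart from what is not reported here. Scripts ran in Python 3.11.15 with numpy 2.4.6 and pandas 2.3.3 and were tested on simulated data.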

Additional observations from a re-analysis of the deposited data

How the results depend on the processing

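In peaks per locus, TAM against EtOH, 8 of the 10 genes and 12246 of all genes were called. With −log10 q of at least 10 these counts were 2 and 5754, with peaks within 10 kb 2 and 3646, with gene body and promoter only 0 and 0, and with the 1853 strongest peaks of each library 0 and 0, where VEGFA (−0.42) and HK2 (−0.17) changed sign. With peaks outside promoters only, an alternative chosen after seeing the data, they were 2 and 4845. Leaving out each library in turn gave 0 to 6 of the 10 genes and 0 to 9549 of all genes, with 0 without either S100A8 EtOH replicate, where the smallest attainable exact permutation p of 0.025 did not pass after adjustment. With the replicate block, 0 and 0 genes were called, since its 32 arrangements cannot go below an exact permutation p of 0.0625. Deviations from the group mean correlated at −0.0445 to 0.0411 between libraries of the same replicate number (5 pairs between treatments). With 2 or 3 libraries per group and few EtOH peaks per locus, this cannot show whether the numbers pair the libraries. With every peak as deposited 10 and 14095 were called, including HIF1A (adjusted p = 0.0211) and LDHA (adjusted p = 0.0320) by exact permutation. The other tests called 0 genes under every alternative run. The mean number of the 10 genes with a promoter peak in EtOH (2.4) was 7.6 with every peak as deposited and 0.8 with the 5′ end of the gene only, and 2 to 2.75 on leaving out a library. In TAM (7.67) it was 9 with every peak, 5.67 with −log10 q of at least 10, 1.33 with equal numbers of peaks, 5 with the 5′ end only, 6.5 with the canonical transcript (chosen after seeing the data), and 7.4 to 8 on leaving out a library. The shares of all genes with a promoter peak under these alternatives are not given here. Within 50 bp in place of 100 bp of the summit, the HIF core was found at 13.0% in place of 30.4% of sites outside promoters (all such sites 21.9% and 35.3%) and at 35.7% in place of 64.3% of promoter sites of the genes (all promoter sites 33.8% and 53.2%). Apart from the alternatives' own construction, the cause of these changes was not tested. Unknown read depth limits every comparison of treatments.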
